A study of Mus musculus with 8 samples.

Results

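Nuclear genes of the mitochondrial respiratory chain and ATP synthase, taken by symbol, were followed in hepatic macrophages. The members were the rows of the deposited gene table whose symbols begin with *Nduf* (letters a, b, c, s or v and a number), *Uqcr*, *Cox4* to *Cox8* (followed by a letter) or *Atp5*, together with *Sdha*, *Sdhb*, *Sdhc* and *Sdhd*. Of 102 such rows, 13 with symbols ending in -ps, with or without a number after it, were dropped. This left 89 members among the 55401 rows of the table. A level of at least 0.5 CPM (counts scaled to the size of the library) in 1 or more libraries was reached by 81 of the 89, and these were tested together with all other genes at that level, 15202 in total. By complex, 38 of 40 members passed for complex I, 4 of 4 for complex II, 8 of 8 for complex III, 14 of 19 for complex IV and 17 of 18 for complex V. Some members taken in by symbol are annotated as processed pseudogenes, among them *Ndufb4c* and *Ndufs6b*, which passed, and *Ndufa11b*, which did not. The 8 members that did not pass were *Ndufa11b*, *Ndufa4l2*, *Cox4i2*, *Cox6b2*, *Cox7b2*, *Cox8b*, *Cox8c* and a second row named *Atp5o*. Of these, *Cox7b2*, *Cox8b*, *Cox8c* and the second *Atp5o* had no count in any library. *Ndufa4*, counted here with complex I by its symbol, is now regarded as a subunit of complex IV.

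The libraries came from macrophages taken with F4/80 magnetic beads out of the nonparenchymal cells of the liver. The normal livers were those of WT C57BL/6J mice on a standard diet, and the steatotic livers those of MC4R-KO mice, also C57BL/6J, that had received a Western diet for 6 to 10 wk. Once isolated, the cells received vehicle (Veh) or 500 μg/ml of cholesterol crystals (CC) on collagen-coated plates over 24 h, and poly(A) RNA was sequenced from 2 libraries in each of the 4 groups. Genotype and diet changed together, so their effects cannot be told apart, and the knockout is not limited to macrophages. The age of the mice is given for the study's longer feeding experiments and not for these cultures, and the number of animals per library is not given in the sources used here. Nothing in the labels ties a library to a separate animal or culture, so the p-values measure only the spread between these libraries.

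Complexes I to IV of the inner mitochondrial membrane pass electrons from NADH or succinate to oxygen, and complexes I, III and IV pump protons as they do so. Complex V uses the proton gradient to make ATP. Complex II, succinate dehydrogenase, is also an enzyme of the tricarboxylic acid cycle and is encoded entirely in the nucleus, whereas the other complexes combine nuclear subunits with subunits encoded by the mitochondrial DNA. In macrophages the balance between oxidative phosphorylation and glycolysis is known to shift with activation, and succinate oxidation by complex II and reverse electron flow through complex I are known sources of reactive oxygen species.

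Total counts ranged from 58668655 to 74529462 per library. The knocked-out gene *Mc4r* was at 0 in the 4 libraries labelled normal and at 0.301 to 0.983 CPM in the 4 labelled steatotic. This goes against the labels if the knockout allele gives no reads, which the sources used here do not say, and each direction between livers is therefore one between labels. The macrophage markers *Adgre1* (F4/80), *Cd68* and *Csf1r* were at 814 CPM or more in every library. The summed level of 13 macrophage markers was 18107 to 18687 CPM in normal livers with Veh and 13653 to 13899 with CC, and 18041 to 18592 CPM in steatotic livers with Veh and 12181 to 13309 with CC. Near-equal sums with Veh hid opposite differences, as *Lyz2* was at 7716 to 8021 CPM in normal and 3455 to 3612 CPM in steatotic livers and *C1qa* at 821 to 862 and 2163 to 2262 CPM. The 15 hepatocyte markers summed to 71.1 to 76.0 CPM in normal livers with Veh, 67.8 to 79.5 with CC, 39.4 to 46.4 in steatotic livers with Veh and 103 to 116 with CC. *Alb* was at 41.0 to 48.2 CPM in normal and 1.24 to 2.35 CPM in steatotic livers, and in steatotic livers with CC the sum was mostly *Ass1* at 87.2 to 100.2 CPM. The 8 stellate cell markers summed to 4.54 to 4.57 CPM in normal livers with Veh, 8.24 to 9.85 with CC, 19.2 to 23.1 in steatotic livers with Veh and 111 to 140 with CC. In the last group *Dcn* made 110 to 138 CPM of this. *Col1a1*, *Col1a2* and *Col3a1* were at or below 0.398 CPM in every library and *Lrat* and *Des* were at 0 in steatotic livers. The 8 markers of T and NK cells summed to 0.801 to 1.35 CPM in normal and 13.4 to 18.4 CPM in steatotic livers. The 8 endothelial markers summed to 149 to 189 CPM in normal and 243 to 265 CPM in steatotic livers. Over all libraries, the 5 markers of B and plasma cells summed to 1.23 to 3.03 CPM and the 7 neutrophil markers to 4.76 to 19.9 CPM, with *Ly6g* at 0 in each. The 9 markers of proliferation summed to 277 to 293 CPM in normal and 230 to 258 CPM in steatotic livers, mostly *Pcna*, while *Mki67* was at 5.48 to 6.39 CPM in normal and 7.87 to 10.2 CPM in steatotic livers. The part of these differences in the results below was not tested, and in such bulk samples fewer mitochondria-rich cells and less RNA per cell cannot be told apart.

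Levels of different genes were compared as CPM per kb of merged exon, averaged over the 8 libraries. The median was 29.7 CPM per kb for complex I, 49.4 for complex II, 49.4 for complex III, 71.9 for complex IV and 54.3 for complex V. *Cox6b1*, a subunit at the dimer interface of complex IV, was the highest of all members at 319 CPM per kb. In complexes V and III, the highest were *Atp5b*, the catalytic β subunit of ATP synthase, at 157 CPM per kb and *Uqcr10*, a small subunit of complex III, at 151. In complexes I and II, they were *Ndufa1* at 110 CPM per kb and *Sdhd*, a membrane anchor of complex II, at 77.3. By this measure the lowest members that passed the filter were *Ndufb2* at 1.81 CPM per kb and *Cox7a1*, the heart and muscle isoform of subunit 7a, at 2.24. The merged exons take in all annotated transcripts, 5628 bases for *Ndufb2* against 419 for *Ndufa1*. Ranks and medians per kb thus also depend on the annotation. Without division by length, *Ndufb2* was at 10.2 CPM, above *Ndufs6b* at 1.37. The counting could split reads between *Ndufb4* and *Ndufb4c*, *Ndufs6* and *Ndufs6b*, and *Cox6c* and *Cox6c2*. The same holds for members with a dropped -ps row, such as *Ndufa12*. *Ndufa12-ps* had 1933 to 3100 counts per library, against 1804 to 3024 for *Ndufa12*. No alternative added the counts of dropped rows to a member. The levels of all these genes are uncertain.

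**Figure D1:**
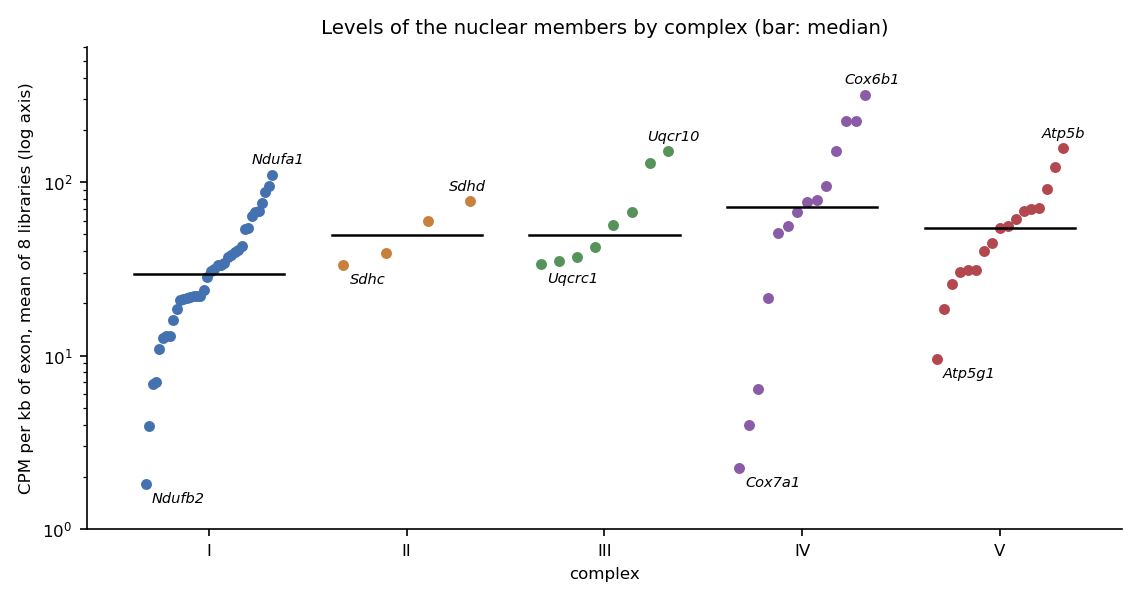
Mean level of each of the 81 tested members over the 8 libraries, in CPM per kb of merged exon on a log axis, by complex, with the median of each complex as a bar and the lowest and highest member named. Members of 1 complex span a wide range, from 1.81 to 110 CPM per kb in complex I and from 2.24 to 319 in complex IV.

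Of the paired isoforms of complex IV, the ubiquitous form carried nearly all of the level. *Cox6a1* was at 224 CPM per kb against 3.98 for *Cox6a2*, the heart and skeletal muscle form, *Cox7a2* was at 76.6 against 2.24 for *Cox7a1*. *Cox4i1* was at 151 CPM per kb, while *Cox4i2*, the form known from lung and from low oxygen, had 13 counts in 1 library of normal livers with CC and none in the other libraries. *Cox8a* was at 226 CPM per kb and *Cox8b*, the muscle form, had no counts, which at 3 counts per library allows at most 0.0403 to 0.0511 CPM, or 0.161 to 0.205 CPM if 4 counts stand for 1 fragment. *Cox6b2*, the testis form, was at 0.373 and 0.457 CPM in the normal livers with Veh and at 0.128 and 0.205 with CC, but at 0.0590 CPM in 1 and at 0 in 3 of the libraries of steatotic livers, all below the filter and not tested. *Ndufa4l2*, a paralog of *Ndufa4* known as a target of the hypoxia factor HIF-1, had 4 counts in 1 library and none in the others.

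Promoters of respiratory chain genes are known for binding sites of NRF1, of ETS-family factors such as GABP (NRF2) and of YY1. RefSeq windows on GRCm38.p6, from 250 bases before to 50 bases after the start of a gene, were given for 65 of the 81 tested members. The NRF1 core GCGCATGC was found on either strand in 10 of the 65 (15.4%, against 3.05% of the windows of 27025 genes), the ETS letters CCGGAAG in 17 (26.2% against 9.93%) and the YY1 letters AAGATGGCG in 7 (10.8% against 1.64%). Any of the 3 was present in 28 (43.1% against 13.6%). The NRF1 core shares letters with its own reverse complement, so that both can overlap. A motif was present for 8 of the 20 members with a window that passed the test in any of the comparisons and for 20 of the 45 that passed in none (40.0% and 44.4%). A match of letters is a description and not a binding site. The 250 bases before the start are shown for *Sdhb* and *Cox6a1*, which hold such letters, and for *Ndufc2*, the member that was lower in the most comparisons and held none. *Sdhb* lies at chr4:140961021-140961270 (plus strand), *Cox6a1* at chr5:115348959-115349208 (minus strand) and *Ndufc2* at chr7:97399753-97400002 (plus strand), and capitals mark motif letters.
Sdhb: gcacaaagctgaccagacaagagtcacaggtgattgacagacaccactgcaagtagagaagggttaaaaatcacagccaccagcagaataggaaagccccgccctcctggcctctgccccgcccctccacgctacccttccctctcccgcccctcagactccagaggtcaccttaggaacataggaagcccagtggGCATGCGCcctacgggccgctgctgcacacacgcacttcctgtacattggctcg
Cox6a1: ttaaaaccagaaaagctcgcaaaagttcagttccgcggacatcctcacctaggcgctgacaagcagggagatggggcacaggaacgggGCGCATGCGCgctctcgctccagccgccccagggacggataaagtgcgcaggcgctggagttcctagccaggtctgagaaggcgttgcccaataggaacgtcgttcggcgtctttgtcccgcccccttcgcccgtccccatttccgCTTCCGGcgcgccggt
Ndufc2: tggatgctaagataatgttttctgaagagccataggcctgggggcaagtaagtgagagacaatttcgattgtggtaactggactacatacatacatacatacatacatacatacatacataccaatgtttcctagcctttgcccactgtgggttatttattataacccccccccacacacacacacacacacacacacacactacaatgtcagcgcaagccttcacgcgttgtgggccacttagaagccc
In *Sdhb* the capitals are the reverse complement of the NRF1 core, and ETS letters follow the start, outside the part shown. In *Cox6a1* the first run of capitals is the NRF1 core overlapping its reverse complement, beginning 162 bases before the start, and the second is the reverse complement of the ETS letters, 16 bases before it.

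Summed over the 81 members, the level was 7571 and 7103 CPM in the libraries of normal livers with Veh, 6680 and 6743 with CC, 6796 and 7012 in steatotic livers with Veh and 6656 and 6794 with CC. The normal livers with Veh were thus the highest, and the other groups lay at 0.907 to 0.956 of their mean. With 2 libraries against 2, an exact permutation test cannot give a two-sided p below 0.333, so sums are given without a test. By complex, the mean of complex I was 1898 ± 71.6 CPM (SD, n = 2) in normal livers with Veh, 1696 ± 15.4 with CC, 1769 ± 0.784 in steatotic livers with Veh and 1705 ± 8.31 with CC. Complex II was at 552 ± 9.85 and 492 ± 2.75 CPM in normal livers with Veh and CC, and at 576 ± 5.06 and 528 ± 17.5 CPM in steatotic livers. Complex III was lowest in steatotic livers, at 664 ± 6.51 CPM with Veh and 645 ± 3.81 with CC against 736 ± 30.9 and 706 ± 15.9 in normal livers.

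**Figure D2:**
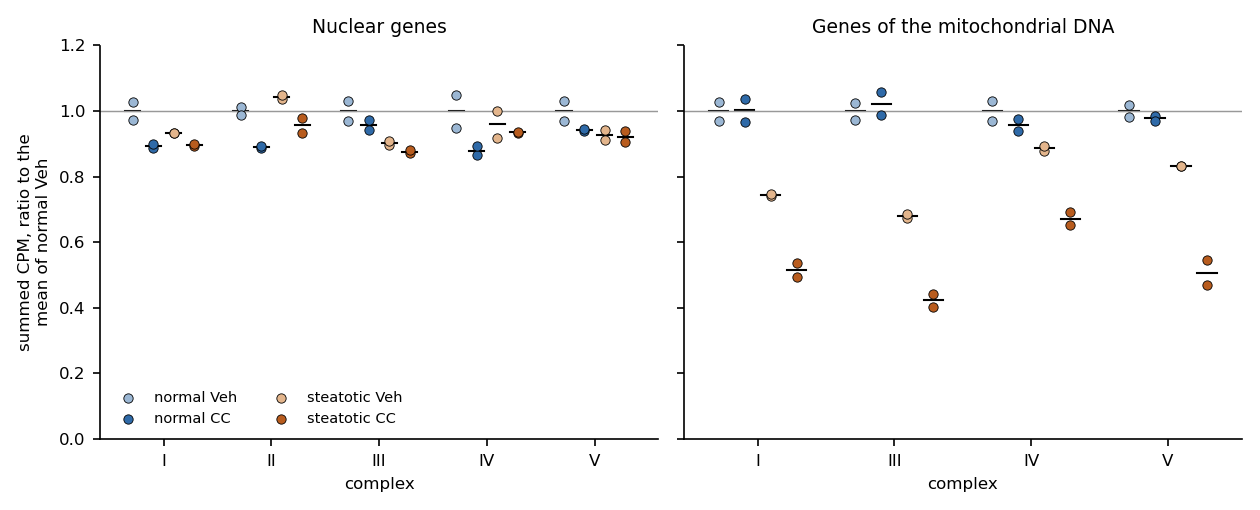
Summed CPM of the nuclear members of each complex (left) and of the genes of the mitochondrial DNA of each complex (right) in each library, as a ratio to the mean of the normal livers with Veh, with points for libraries and bars for group means. The nuclear sums stayed between 0.866 and 1.05 in every library, whereas those of the mitochondrial DNA fell to between 0.404 and 0.692 in the steatotic livers with CC.

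The macrophages of steatotic and of normal livers were first compared without crystals. With Veh, 16 members of 81 were lower in steatotic livers (19.8%, against 14.3% of all genes tested) and 3 were higher (3.70%, against 16.4% of all genes), by edgeR's quasi-likelihood test with Benjamini-Hochberg adjustment over all genes and an adjusted p-value under 0.05. The median log2 fold change of the members was -0.09, against -0.01 for all genes. Most members are well expressed, and of the 8646 tested genes with a mean of at least 10 CPM 18.4% were lower and 19.9% higher, so that the share of lower members was close to that of such genes. The lower members belonged to complex I (9 of 38), complex III (4 of 8) and complex V (3 of 17), and none to complexes II and IV. *Atp5mpl*, a small subunit of ATP synthase, was at 88.8 and 83.7 CPM in normal livers and at 65.7 and 58.1 CPM in steatotic livers. The groups did not overlap, and its log2 fold change was -0.48 ± 0.07 (SE, adjusted p = 0.00196). *Ndufb6*, an accessory subunit of the membrane arm of complex I, went from 30.0 and 29.2 CPM to 21.6 and 21.4 CPM, a log2 fold change of -0.46 ± 0.08 (adjusted p = 0.00461), although 39.0% of its exon bases are shared with *Smim27* on the other strand, at 3.95 to 5.87 CPM in the Veh libraries. *Ndufc2*, *Ndufa12* and *Ndufa9*, further accessory subunits of complex I, had log2 fold changes of -0.39 ± 0.06, -0.37 ± 0.07 and -0.29 ± 0.08. *Atp5b* fell from 740 and 712 CPM to 604 and 605 CPM, with a log2 fold change of -0.26 ± 0.03 (adjusted p = 0.000869), the lowest p-value of any member in this comparison. The other member of complex V that was lower was *Atp5g3*, a gene of the c ring (-0.22 ± 0.05), while *Atp5g1* and *Atp5g2* did not pass in any comparison. *Atp5a1*, the α subunit, was at 412.33 and 400.30 CPM in normal and 351.71 and 399.98 CPM in steatotic livers, so that the nearest libraries were almost equal (log2 fold change -0.11 ± 0.06, adjusted p = 0.228).

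The core proteins of complex III, *Uqcrc1* and *Uqcrc2*, were both lower in steatotic livers with Veh, with log2 fold changes of -0.17 ± 0.05 and -0.20 ± 0.05, as were *Uqcrb* and *Uqcrq*, at -0.23 ± 0.05 and -0.13 ± 0.04. The calls of *Uqcrq* and *Uqcrc1* were lost under 14 and 6 of 16 alternatives. *Uqcrfs1*, the Rieske iron-sulfur protein of the same complex, did not pass the test, at -0.12 ± 0.07 (adjusted p = 0.241). In complex I, *Ndufa10*, *Ndufs5*, *Ndufs7* and *Ndufb7* were also lower, with log2 fold changes of -0.20 to -0.27, and the call of *Ndufs7* was lost under 12 of 16 alternatives. *Ndufs1*, the largest subunit of its electron input module, was lower at -0.25 ± 0.07 (adjusted p = 0.0358, lost under 7 of 16 alternatives). *Ndufv1*, which carries the site of NADH oxidation, varied more between replicates than between groups, from 26.2 to 42.3 CPM over all libraries (log2 fold change -0.01 ± 0.23). *Sdhb*, the iron-sulfur subunit of complex II, was higher, from 84.5 and 80.7 CPM to 103 and 103 CPM (log2 fold change 0.32 ± 0.06, adjusted p = 0.00506). The other members that were higher were *Ndufa7* (0.32 ± 0.09, adjusted p = 0.0282) and *Cox6a2* (1.47 ± 0.21, adjusted p = 0.00145), which is described further on. Leaving out 1 library lowered the count of 16 lower members to 7 without normal Veh replicate 1, 10 without normal Veh replicate 2, 9 without steatotic Veh replicate 1 and 7 without steatotic Veh replicate 2. *Atp5mpl*, *Ndufb6*, *Ndufc2*, *Ndufa12*, *Atp5b*, *Sdhb* and *Cox6a2* passed under each of 16 alternative settings.

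**Figure D3:**
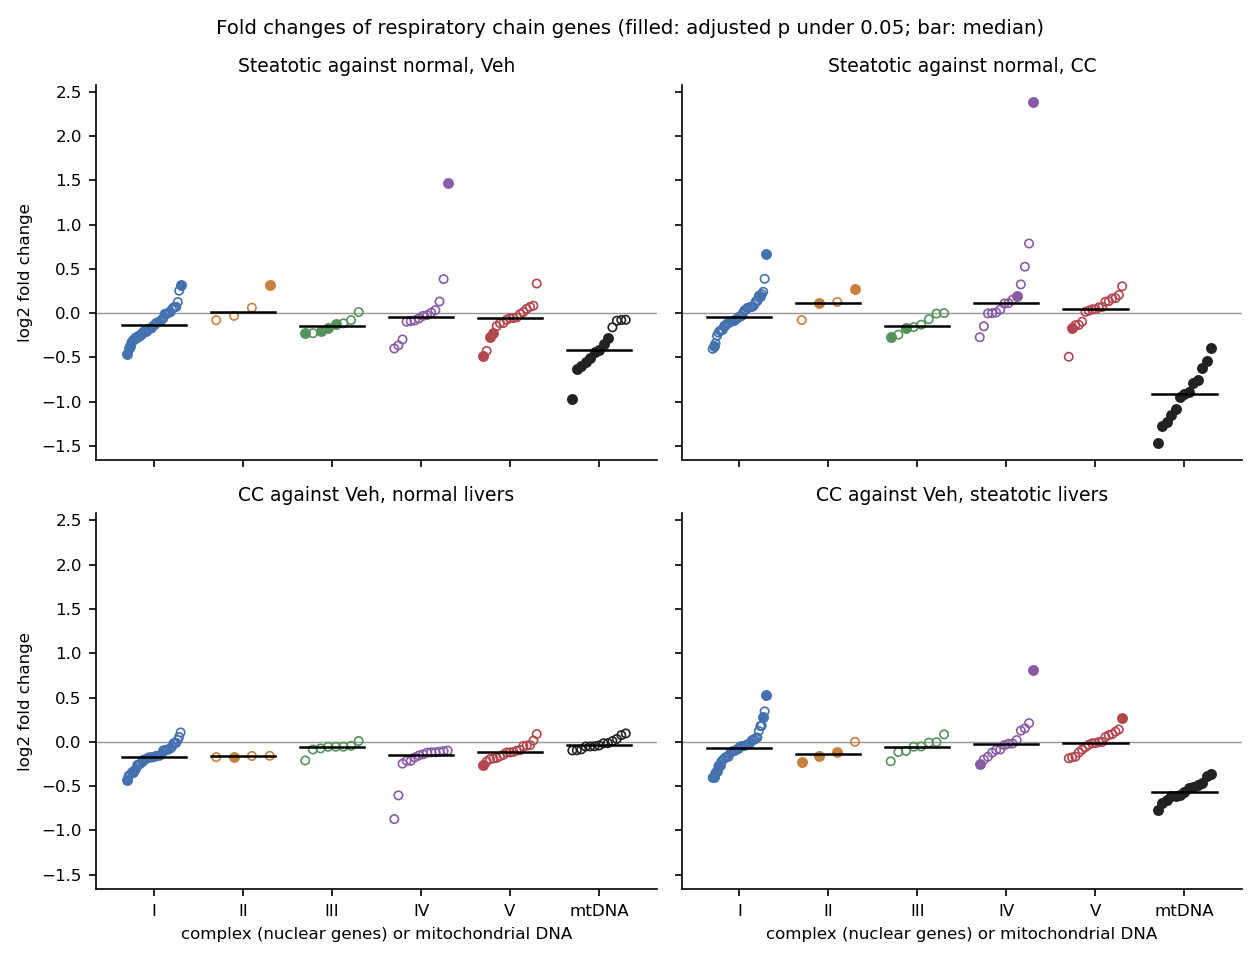
Log2 fold change of each tested member by complex, and of the 13 genes of the mitochondrial DNA, in 4 comparisons. Filled points have an adjusted p-value under 0.05 and bars are medians. Most nuclear members lay near 0, with *Cox6a2* the highest in the comparisons of livers, and the genes of the mitochondrial DNA lay below 0 in 3 of the panels and near 0 for CC in normal livers.

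The response to crystals was then examined in macrophages of each kind of liver. In normal livers, 6 members of 81 were lower with CC than with Veh (7.41%, against 5.54% of all genes tested) and none was higher (against 6.27% of all genes). Of the genes with a mean of at least 10 CPM, 8.47% were lower and 9.48% higher, so the members were not called more often than genes at that level. At an unadjusted p under 0.05, 32 of 81 members were lower and 0 higher. Of the 8646 genes with a mean of at least 10 CPM, 1527 were lower and 1445 higher at that threshold. Of all 15202 genes tested, these were 1929 and 1903. DESeq2 called 8 members lower and 0 higher, against 5.94% of all genes lower and 6.93% higher. The shifts were small and mostly in 1 direction, as 75 of 81 members had a log2 fold change below 0 with a median of -0.15, against -0.00059 for all genes, of which 7616 of 15202 were below 0. *Ndufv3*, an accessory subunit of the NADH-oxidizing module of complex I, was at 41.49 and 37.98 CPM with Veh and at 29.0 and 30.0 CPM with CC. Its groups did not overlap, and its log2 fold change of -0.43 ± 0.08 (adjusted p = 0.0157) was the most negative of the members that passed. *Ndufc2* went from 52.2 and 49.6 to 40.2 and 40.1 CPM (-0.34 ± 0.06, adjusted p = 0.0121) and *Ndufa12* from 41.8 and 38.4 to 32.6 and 30.8 CPM (-0.34 ± 0.07, adjusted p = 0.0209). The others were *Atp5e*, the ε subunit of ATP synthase (-0.26 ± 0.07), *Ndufb7* (-0.21 ± 0.05) and *Sdha*, the flavoprotein that oxidizes succinate (-0.17 ± 0.03, adjusted p = 0.0181). The calls of *Atp5e* and *Ndufb7* were lost under 10 and 8 of 16 alternatives. With scaling by library size only, 14 members were lower and 0 higher, and the count fell to 0 without normal CC replicate 1, to 1 without normal CC replicate 2 and to 0 without normal Veh replicate 1, where 1 member was higher.

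In steatotic livers, 7 members were lower with CC (8.64%, against 10.9% of all genes) and 4 were higher (4.94%, against 12.0%), with a median log2 fold change of -0.05 against 0.00 for all genes. The share of members that passed in each direction was thus below that of all genes, and below the 16.2% lower and 15.9% higher of genes with a mean of at least 10 CPM. The lower members again included *Ndufv3*, from 38.7 and 41.3 to 32.2 and 28.4 CPM (-0.40 ± 0.08, adjusted p = 0.0115), and *Ndufc2*, from 39.3 and 38.4 to 29.9 and 32.2 CPM (-0.33 ± 0.06, adjusted p = 0.00808). They also included *Ndufa13*, which is also known as the cell death regulator GRIM-19 (-0.26 ± 0.06), *Cox5a*, a matrix-facing subunit of complex IV (-0.25 ± 0.07), and 3 of the 4 genes of complex II, *Sdhb* (-0.22 ± 0.06), *Sdhc* (-0.16 ± 0.05) and *Sdha* (-0.12 ± 0.03). The call of *Cox5a* was lost under 6 of 16 alternatives. The calls of *Sdhc* and *Sdha* were lost under 12 and 11 of 16 alternatives, DESeq2 and the replicate block among them for both. *Ndufs4*, an accessory subunit whose loss is known to cause complex I deficiency, was at 32.04 and 30.0 CPM with Veh and at 41.0 and 48.2 CPM with CC. It was the only complex I member above 0.5 in log2 fold change here, at 0.52 ± 0.12 (adjusted p = 0.0176). *Ndufb6* and *Atp5mpl*, which had been lower in steatotic livers with Veh, were higher with CC than with Veh, at 0.28 ± 0.08 (adjusted p = 0.0480) and 0.27 ± 0.07 (adjusted p = 0.0333). These calls were lost under 12 and 5 of 16 alternatives. These comparisons share the steatotic Veh libraries, so that a low value there moves both. The count of lower members was 4 without normal CC replicate 1, normal CC replicate 2 or steatotic CC replicate 1, and 2 without either steatotic Veh replicate. The count of higher members was 2 without either steatotic CC replicate, 1 without steatotic Veh replicate 1 and 0 without steatotic Veh replicate 2.

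Members lower with CC under both liver labels were 3, *Ndufc2*, *Ndufv3* and *Sdha*, of which *Sdha* rests on the call in steatotic livers that most alternatives lost. They are 3.70% of the members, against 4.39% of all genes tested. *Ndufc2* was also lower in steatotic than in normal livers with either treatment, with 52.2 and 49.6 CPM in normal livers with Veh and 29.9 and 32.2 CPM in steatotic livers with CC at the ends. Its level in normal livers with CC (40.2 and 40.1 CPM) and in steatotic livers with Veh (39.3 and 38.4 CPM) was close to the same. Replicates of the members differed by a median of 0.0754 to 0.102 in log2 CPM in the 4 groups, against 0.0663 to 0.0806 for all genes with a mean of at least 10 CPM, and 76 of the 81 tested members had such a mean. Members whose replicates differed by more than 0.5 in a group, among them *Cox7a1*, *Cox4i1*, *Cox6c*, *Ndufb5*, *Ndufs8* and *Ndufv1*, could therefore hide changes of the size seen in the others. *Cox7a1* had a log2 fold change of -0.87 ± 0.39 with CC in normal livers, which did not pass (adjusted p = 0.217). *Cox4i1*, the main isoform of a core-bound subunit of complex IV, was at 167 and 245 CPM in steatotic livers with Veh alone.

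**Figure D4:**
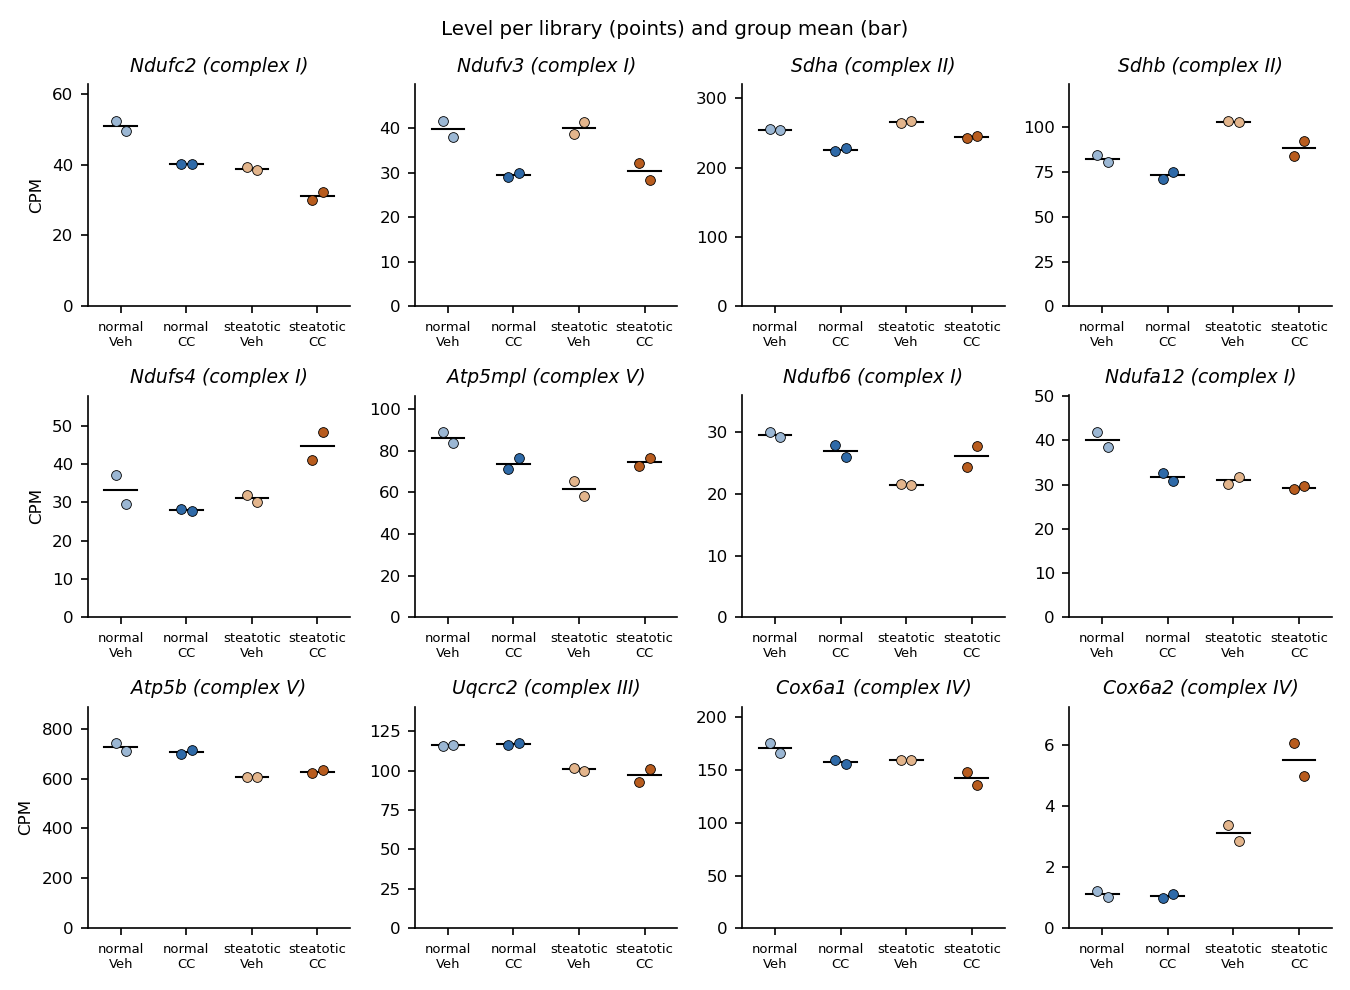
Level in CPM of 12 members in each of the 8 libraries, with points for libraries and bars for group means, on axes that start at 0. *Ndufc2* and *Ndufv3* were lower with CC in both kinds of liver, *Ndufs4* was higher with CC in steatotic livers, and *Cox6a2* was near 1 CPM in the normal livers and between 2.87 and 6.05 CPM in the steatotic livers.

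The difference between the CC responses, steatotic minus normal, was tested as an interaction. None of the 81 members passed in either direction with edgeR at the settings used throughout (against 1.95% of all genes higher and 1.27% lower). At an unadjusted p under 0.05, 14 members were higher and 0 lower, against 1207 higher and 951 lower of all 15202 genes tested. In simulated data the interaction test found 1 of 200 genes changed 1.5-fold and 150 of 200 changed 2-fold, so smaller differences could be missed. Higher members numbered 1 with edgeR on library size only, 1 on counts divided by 4, 2 with no filter on low counts and 2 by DESeq2, and none was lower. The members called by DESeq2 were *Ndufs4*, with a difference of 0.77 ± 0.17 by edgeR (adjusted p = 0.0612), and *Atp5mpl*, with 0.49 ± 0.10 (adjusted p = 0.0501). The median difference of the members was 0.09, against 0.01 for all genes. For *Ndufc2*, *Ndufv3* and *Sdha* the differences were 0.02 ± 0.09, 0.03 ± 0.12 and 0.05 ± 0.05.

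With CC in both kinds of liver, 4 members were lower in steatotic than in normal livers (4.94%, against 12.9% of all genes) and 6 were higher (7.41%, against 15.9%), and the median of the members was 0.01 against 0.00 for all genes, with either sign among the alternatives (-0.02 to 0.04). The lower members were *Ndufc2* (-0.37 ± 0.06), *Uqcrc2* (-0.27 ± 0.05), *Atp5b* (-0.17 ± 0.03) and *Uqcrc1* (-0.16 ± 0.05), which were also lower with Veh. The higher members were *Sdha* (0.11 ± 0.03), *Cox7a2* (0.19 ± 0.05), *Ndufb9* (0.20 ± 0.06), *Sdhb* (0.27 ± 0.06), *Ndufs4* (0.67 ± 0.12, adjusted p = 0.00500) and *Cox6a2*. *Sdha* passed narrowly (adjusted p = 0.0455) and lost its call under each of 16 alternatives, *Ndufb9* under 11 and *Uqcrc1* under 10. With scaling by library size only, 7 members were lower and 4 higher. Without normal CC replicate 2, 2 members were lower, and without steatotic CC replicate 2, 3 were higher. Over the 5 comparisons, 28 of the 81 members passed at least once, 15 of them once only, and 53 passed in none. The 28 are 34.6% of the members, against 45.1% of all genes tested and 56.1% of those with a mean of at least 10 CPM. With Veh, steatotic against normal, 1.23% of the members had a log2 fold change beyond 0.5 in size, against 17.1% of the 8646 tested genes with a mean of at least 10 CPM, and with CC in steatotic livers 2.47% against 14.8%. With CC in normal livers it was 2.47% against 8.36%, between livers with CC 4.94% against 15.2%, and for the difference between responses 6.17% against 8.27%.

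*Cox6a2* had the largest fold change between livers of the tested members, with either treatment. It was at 1.23 and 1.03 CPM in normal livers with Veh, 0.977 and 1.13 with CC, 3.39 and 2.87 in steatotic livers with Veh and 6.05 and 4.98 with CC. The 4 libraries of steatotic livers were all above those of normal livers, and in steatotic livers those with CC were above those with Veh. Its log2 fold change with CC in steatotic livers was 0.82 ± 0.20 (adjusted p = 0.0229), and between livers with CC it was 2.39 ± 0.21 (adjusted p = 0.000158). With CC in normal livers it was -0.11 ± 0.22 (adjusted p = 0.820) and the difference between the responses was 0.92 ± 0.29 (adjusted p = 0.188). The call with CC in steatotic livers was lost under 3 of 16 alternatives, each with 1 library left out. The gene lies on chromosome 7 from 128205435 to 128206387 of GRCm38 on the minus strand, inside *Itgad*, the integrin subunit αD, from 128154376 to 128223816 on the plus strand, and 70 of its 680 exon bases (10.3%) are also exon of *Itgad*. *Itgad* had no counts in normal livers, 1.53 and 1.49 CPM in steatotic livers with Veh and 7.45 and 6.07 CPM with CC. The library kit keeps the strand, but whether the counting used it is not given in the sources used here, so reads of the 2 genes cannot be told apart. Against *Cox6a1*, at 136 to 175 CPM in all libraries, *Cox6a2* stayed a minor form, with 0.678% of the summed level per kb of both in normal livers with Veh, 0.685% with CC, 1.98% in steatotic livers with Veh and 3.85% with CC.

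The 13 protein-coding genes of the mitochondrial DNA, which encode further subunits of complexes I, III, IV and V, were measured in the same libraries. They summed to 16262 and 15316 CPM in normal livers with Veh, 15835 and 15059 with CC, 12855 and 13025 in steatotic livers with Veh and 9731 and 9063 with CC. The steatotic livers with CC were thus lowest, at 0.595 of the mean of normal livers with Veh, while the sum over the nuclear members was at 0.917 of it. With CC in steatotic livers, 13 of 13 were lower (median log2 fold change -0.57), against 10.9% of all genes tested. In normal livers none of 13 passed in either direction, against 5.54% of all genes lower and 6.27% higher. The median there was -0.04 (-0.08 to 0.02 among the alternatives), with 0 at an unadjusted p under 0.05 and 0 by DESeq2. All 13 lie on 1 genome, so these counts are not 13 independent results. The difference between the CC responses passed as lower for 12 of 13 with edgeR, against 1.27% of all genes, with a median of -0.50. With DESeq2 it passed for 13 of 13, against 2.02% of all genes lower. *mt-Cytb*, the only subunit of complex III in the mitochondrial DNA (chromosome M, 14145 to 15288), was at 1167 and 1109 CPM in normal livers with Veh and 1203 and 1125 with CC, and fell from 767 and 782 to 502 and 460 CPM with CC in steatotic livers. Its log2 fold change was -0.69 ± 0.05 in steatotic livers (adjusted p = 9.56e-05) and 0.03 ± 0.05 in normal livers, with a difference of -0.72 ± 0.08 (adjusted p = 0.00455). *mt-Co1*, the catalytic subunit of complex IV and the most abundant of these RNAs, had a difference of -0.31 ± 0.06 (adjusted p = 0.0467), and *mt-Nd4l* did not pass, at -0.46 ± 0.13 (adjusted p = 0.119). The count of 12 was 6 without normal CC replicate 1, normal Veh replicate 2 or steatotic Veh replicate 2 and 7 without steatotic Veh replicate 1.

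With Veh, 9 of the 13 were lower in steatotic than in normal livers, against 14.3% of all genes tested, with a median of -0.42. None was higher (0 at an unadjusted p under 0.05 and 0 by DESeq2), against 16.4% of all genes. With CC 13 of 13 were lower, against 12.9% of all genes, with a median of -0.91. *mt-Nd3*, a complex I subunit, fell most, with a log2 fold change of -0.97 ± 0.06 with Veh (adjusted p = 2.63e-05) and -1.47 ± 0.06 with CC. *mt-Co1*, *mt-Atp8*, *mt-Nd4l* and *mt-Nd5* did not pass with Veh, at -0.08 to -0.16. Within complex III the nuclear members thus summed to 0.877 of the normal Veh level in steatotic livers with CC, whereas *mt-Cytb* was at 0.423 of it. The ribosomal RNAs *mt-Rnr1* and *mt-Rnr2* were named after their values were seen. Between livers with Veh, *mt-Rnr1* was lower (-0.29 ± 0.03, adjusted p = 0.000505), as were 9 of the messenger RNAs, and *mt-Rnr2* was at 0.00 ± 0.04. With CC their values differed from those of the messenger RNAs. *mt-Rnr2* was higher with CC in steatotic livers (0.26 ± 0.04, adjusted p = 0.00277). *mt-Rnr1* was lower with CC in normal livers (-0.33 ± 0.03) but not in steatotic livers (0.06 ± 0.03, adjusted p = 0.281), with a difference of 0.39 ± 0.05 (adjusted p = 0.00642). These libraries were selected for poly(A) tails, which many but not all mitochondrial RNAs carry in short form. The levels describe the RNA captured in this way.

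**Figure D5:**
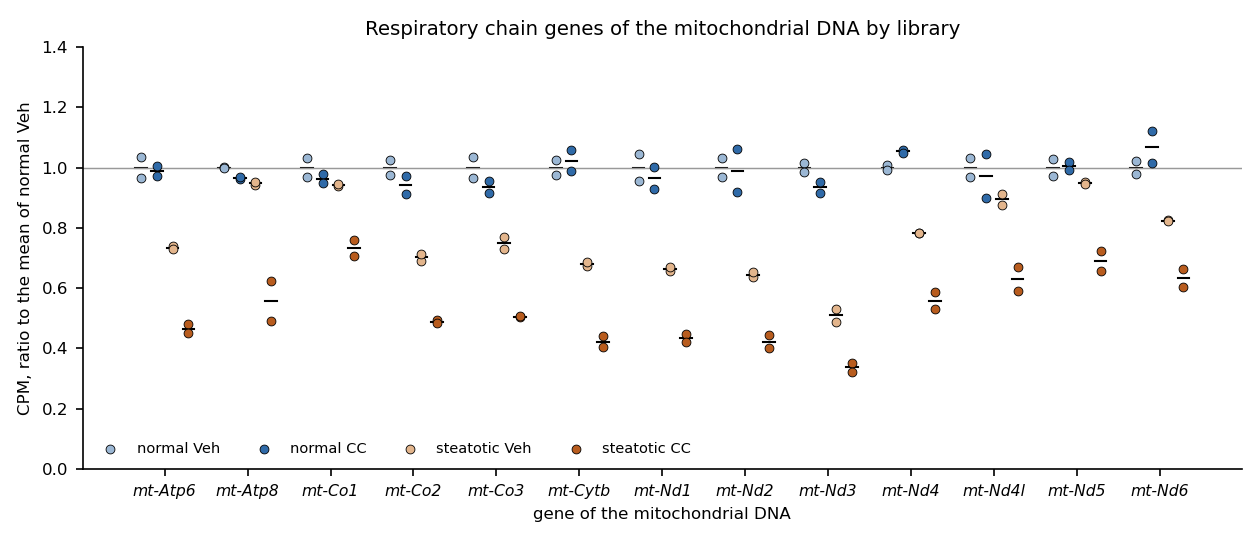
Level of the 13 genes of the mitochondrial DNA in each library as a ratio to the mean of normal livers with Veh, with points for libraries and bars for group means. The normal livers with CC stayed near 1, the steatotic livers with Veh lay at or below 1, and the steatotic livers with CC were lowest for each gene.

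The electron carriers and accessory proteins that work with the complexes were taken from fixed lists. Counts from these lists and those of related pathways stand against all genes tested, of which 14.3% were lower and 16.4% higher in steatotic livers with Veh, 10.9% lower and 12.0% higher with CC in steatotic livers, 5.54% lower and 6.27% higher with CC in normal livers, and 12.9% lower and 15.9% higher in steatotic livers with CC. *Cyc1*, the haem-bearing cytochrome c1 of complex III, which the symbol rule does not take in, was lower in steatotic livers with Veh (-0.25 ± 0.04, adjusted p = 0.00412) and higher with CC in steatotic livers (0.15 ± 0.04, adjusted p = 0.0479, lost under 14 of 16 alternatives). *Cycs*, cytochrome c, was higher in steatotic livers with Veh (0.17 ± 0.05, adjusted p = 0.0355, lost under 7 of 16 alternatives), and *Ndufab1*, the mitochondrial acyl carrier protein in complex I, did not pass in any comparison (adjusted p from 0.0602 to 0.971). Among the 15 tested assembly factors of complex I, 2 were lower and none higher in steatotic livers with Veh (*Ndufaf7* -0.55 ± 0.11 and *Tmem126b* -0.24 ± 0.07, the latter lost under 12 of 16 alternatives), 1 was lower with CC in normal livers (*Foxred1* -0.45 ± 0.08) and none passed with CC in steatotic livers, where 1 was higher and 0 lower at an unadjusted p under 0.05. Between livers with CC, 4 were lower, among them *Nubpl* (-0.57 ± 0.15) and *Ndufaf7* (-0.44 ± 0.11), and 1 was higher, *Foxred1* (0.45 ± 0.09). Of the 4 for complex II, *Sdhaf2*, which helps attach the flavin to *Sdha*, was higher in steatotic livers with Veh (0.54 ± 0.10, adjusted p = 0.00488) and with CC (0.39 ± 0.10). Of the 6 for complex III, *Bcs1l*, which inserts the Rieske protein, was lower with CC in steatotic livers (-0.53 ± 0.12). Of the 21 for complex IV, 4 were higher in steatotic livers with Veh, among them *Sco1* (0.42 ± 0.09) and *Surf1* (0.40 ± 0.08), and 1 was lower, *Lrpprc*, which stabilizes the messenger RNAs of the mitochondrial DNA. *Lrpprc* was at 67.6 and 70.1 CPM in normal livers with Veh, 67.0 and 64.1 with CC, 47.7 and 51.4 in steatotic livers with Veh and 51.4 and 48.9 with CC, and it was lower in steatotic livers (-0.47 ± 0.06 with Veh and -0.39 ± 0.06 with CC) with a CC response of 0.02 ± 0.06 in steatotic livers. With CC in steatotic livers *Cox17*, a copper chaperone of complex IV, was higher (0.37 ± 0.10, lost under 6 of 16 alternatives) and *Cox16* was lower (-0.48 ± 0.09). Of the 5 for complex V, *Atpif1*, the inhibitor of ATP hydrolysis, was lower with CC in steatotic livers (-0.31 ± 0.06) and *Atpaf1* was lower in steatotic livers with CC than in normal livers with CC (-0.98 ± 0.21).

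The other lists placed the members beside related pathways. Of 13 enzymes of the tricarboxylic acid cycle, 7 were lower and 0 higher in steatotic livers with Veh (0 higher at an unadjusted p under 0.05), with *Fh1*, fumarase, at -0.40 ± 0.10 and *Sucla2* at -0.39 ± 0.06, and 8 were lower with CC. *Suclg2*, a subunit of succinyl-CoA ligase, was lower with CC in both kinds of liver, at -0.57 ± 0.10 in normal and -0.86 ± 0.10 in steatotic livers, with a difference of -0.29 ± 0.14 (adjusted p = 0.417). Of 15 tested regulators of mitochondrial biogenesis, none passed between livers with Veh or with CC in either kind of liver. At an unadjusted p under 0.05, 3 were lower between livers, 1 was higher and 1 lower with CC in normal livers and 3 were lower with CC in steatotic livers. Between livers with CC, 2 were lower, *Pprc1* (-0.39 ± 0.07) and *Polrmt*, the mitochondrial RNA polymerase (-0.39 ± 0.10). Of 78 mitochondrial ribosomal proteins, 9 were lower and 1 higher in steatotic livers with Veh, and 5 were lower and 3 higher with CC in steatotic livers. Of 82 tested cytosolic ribosomal proteins, 29 were lower and 0 higher with CC in steatotic livers (median -0.17, 0 higher at an unadjusted p under 0.05), against 6 lower and 0 higher in normal livers, and 21 were higher and 7 lower in steatotic livers with Veh. Of 20 genes of glycolysis and hypoxia, 8 were higher and 3 lower with CC in steatotic livers and 4 were higher and 3 lower in normal livers, among them *Slc2a1*, the glucose transporter GLUT1, at 1.29 ± 0.07 and 0.95 ± 0.07. Of 9 tested mitophagy genes, 2 were higher and 3 lower with CC in steatotic livers, with *Sqstm1*, the autophagy receptor p62, at 0.99 ± 0.03 in steatotic and 0.68 ± 0.03 in normal livers.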

How the data were processed

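Total RNA of 8 libraries was sequenced after poly(A) selection with a directional kit. Per the study's methods, fastp served for trimming and HISAT2 for alignment, on the mm10 build. The authors deposited 1 table of estimated counts per gene and library from StringTie, in whole numbers and not normalized. Tool versions and the use of strand in counting are not given in the sources used here. Counts that are multiples of 4 are in excess, so counts divided by 4 were an alternative.

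Genes at 0.5 CPM or more in 1 or more libraries were kept. TMM scaling and the quasi-likelihood test of edgeR 4.0.16 (R 4.3.3) were applied to 4 group means over all 8 libraries, with Benjamini-Hochberg adjustment over all 15202 genes and a threshold of 0.05. Printed CPM use TMM-scaled library sizes, and errors of log2 fold changes are SE. The common biological coefficient of variation was 0.171. The 5 comparisons were steatotic against normal with Veh and with CC, CC against Veh in each kind of liver, and the difference between the CC responses. Lengths came from GENCODE M21 and promoters from RefSeq, both on GRCm38. Replicate numbers were not used to pair the libraries at the settings used throughout. Deviations of libraries with the same number correlated at -0.0048 to 0.063, which cannot show whether cultures shared a cell preparation. Alternatives were DESeq2 1.42.0 and its size factors, library size only, other filters, counts divided by 4, a replicate block, only the 4 libraries compared, a shorter member list and leaving out each library. Scripts were tested on simulated data.

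Members named were a fixed set of core subunits and genes with a paralog, the 5 highest and 5 lowest that passed in each comparison and the highest per kb of each complex. From each other list, the carriers, the genes of the mitochondrial DNA and up to 2 genes that passed in each direction were named. Further members that passed were named after their values were seen. The members and lists were chosen with earlier results of these data known. The floor of 3 counts covers counting error only.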

Additional observations from a re-analysis of the deposited data

Results flagged for a closer look

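The response to CC differed between steatotic and normal livers, by the interaction test, for 12 genes of the mitochondrial DNA, for *mt-Rnr1* and for *Sqstm1*. Of all genes tested, 1.95% passed this test as higher and 1.27% as lower. On the log2 scale the differences, steatotic minus normal, were -0.56 for *mt-Nd1*, -0.59 for *mt-Nd2*, -0.50 for *mt-Nd3*, -0.56 for *mt-Nd4*, -0.47 for *mt-Nd5* and -0.48 for *mt-Nd6* of complex I. They were -0.72 for *mt-Cytb* of complex III, -0.31 for *mt-Co1*, -0.44 for *mt-Co2* and -0.47 for *mt-Co3* of complex IV, and -0.64 for *mt-Atp6* and -0.72 for *mt-Atp8* of complex V. Of 15 alternatives, the call was lost under 9 for *mt-Atp8*, 8 for *mt-Nd2*, 7 for *mt-Co1* and *mt-Nd3*, 6 for *mt-Nd6* and 4 for *mt-Nd5*, and under none for the other 6 messenger RNAs. *mt-Rnr1*, a ribosomal RNA of the same genome, differed by 0.39 and *Sqstm1* by 0.32, both in the other direction, with the call lost under none and 2 of 15 alternatives. *mt-Nd6* lies on the other strand and overlaps the end of *mt-Nd5*. No nuclear member passed this test at the same settings.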

How the results depend on the processing

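No call of a single gene changed direction under an alternative that was run. Medians close to 0 changed sign, as given beside them, and without normal Veh replicate 1 the members called with CC in normal livers went from 6 lower to 1 higher. Of 46 calls of a member in a comparison, 12 were kept in all alternatives and 30 in all that left no library out. With scaling by library size only, 14 members were lower with CC in normal livers. With CC, steatotic against normal, 7 were then lower and 4 higher, and 1 had a higher CC response in steatotic livers. That last count was 2 with DESeq2, 2 with no filter on low counts and 1 with counts divided by 4. With the replicate block, 2 members were higher with CC in steatotic livers; the block moved no other count of members by over 1.5 times. Leaving out 1 library at a time gave 7 to 15 lower members in steatotic livers with Veh. With CC in normal livers it gave 0 to 6 lower and 0 to 1 higher, and with CC in steatotic livers 2 to 6 lower and 0 to 3 higher. For the difference between responses it gave 0 to 2 higher members and 6 to 11 lower genes of the mitochondrial DNA. With CC, steatotic against normal, it gave 2 to 6 lower and 3 to 8 higher members. The cause was not tested. With a library left out, 1 group has a single library, assumed to vary like the others. With 2 libraries a group, small changes of members with uneven replicates were not detectable. Small changes of other genes could be missed as well. In simulated data, 102 of 200 genes changed 1.5-fold were found for CC in steatotic livers, and 1 of 200 by the interaction test. The absence of calls among members in the interaction test therefore does not show equal responses.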
